A study of Mus musculus with 2 samples.

Results

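The cells described here are neutrophils of the mouse cochlea that carried transcripts of Mmp8, the neutrophil collagenase gene. They carried few transcripts of the granule genes Camp, Ngp and Ltf or of activation genes. They were 627 of the 6803 deposited cell barcodes, 236 from the implanted and 391 from the non-implanted library, and were selected on their own measured counts of unique molecular identifiers (UMIs, each standing for 1 captured transcript molecule). A barcode needed at least 200 genes and at most 10% mitochondrial UMIs. S100a8 and S100a9 together had to reach 3% of its UMIs, and Camp, Ngp and Ltf together had to stay below 1.5%. It needed at least 3 Mmp8 UMIs, fewer than 5 UMIs of Cxcl2, Acod1, Ccrl2 and Nr4a3 together, fewer than 5 of C1qa, C1qb and C1qc, and fewer than 4 of Ccr2 and F13a1. Because these 15 genes chose the cells, their levels are given as a description.

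The study took single cells from mouse cochleae 33 days after insertion of a cochlear implant electrode. Cells were selected with magnetic beads against CD11b, a surface integrin of myeloid cells, and captured on the 10x Genomics droplet platform. Both groups were C57BL/6J mice of genotype CX3CR1+/GFP Thy1+/YFP, which carry fluorescent reporters in myeloid cells and neurons, and both pooled males and females. One library came from electrode-implanted and one from non-implanted cochleae. Each group was therefore 1 library, and neither the number of animals nor their age was given for it. The series title names dexamethasone-eluting and standard arrays and its design text names the opposite cochlea, but the labels of the libraries say neither which array was used nor whose cochleae were the non-implanted ones. The extraction protocol attached to both libraries describes stria vascularis tissue of younger mice and does not match the design text.

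Neutrophils form their granules in sequence as they mature in the bone marrow. Genes of primary granules are transcribed first, those of specific granules (Camp, Ngp, Ltf, Lcn2) next, and those of gelatinase granules (Mmp9) later. Receptors for chemokines and colony-stimulating factor appear as the cell becomes able to leave the marrow. MMP8 and MMP9 are secreted proteases that cleave collagen and gelatin. Retnlg encodes a resistin-like secreted protein abundant in maturing and blood neutrophils.

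Of 3231 implanted and 3572 non-implanted barcodes, 3149 and 3513 passed the filters, and 6 barcode sequences occurred in both libraries, 1 of them on a selected cell of the non-implanted library. The selected cells had a median of 3120.5 UMIs in the implanted library (range 1302 to 7312) and 3213 in the non-implanted library (1269 to 9814). Their median share of mitochondrial UMIs was 0.221% and 0.225%. Itgam, which encodes CD11b itself, had 0 UMIs in every barcode of both libraries, so the bead selection could not be checked at the transcript. Intervals below are 95% intervals and cover counting error only: exact Clopper-Pearson for shares, Newcombe for differences of shares and exact conditional Poisson for ratios of UMI sums. With 1 library per group, no difference between the libraries could be tested against the spread between animals.

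Mmp8 lies at chr9:7558456-7568485 on the plus strand, Retnlg at chr16:48872621-48874496 on the plus strand, Mmp9 at chr2:164940780-164955850 on the plus strand, Cd177 at chr7:24743983-24760311 on the minus strand and Adpgk at chr9:59291558-59324052 on the plus strand (GENCODE M21, GRCm38), all protein coding. The 250 bases before the RefSeq start are shown for 4 genes that were together higher in these cells than in the Mmp8-low neutrophils defined below. Of these, Mmp8 was fixed by the rule. Cd177 and Adpgk were higher still in granule-high neutrophils, also defined below, so they do not set these cells apart from all neutrophils. The sequences lie on GRCm38.p6 at chr9:7558179-7558428 for Mmp8, chr16:48872358-48872607 for Retnlg, chr7:24760312-24760561 on the minus strand for Cd177 and chr9:59291322-59291571 for Adpgk. Capitals mark matches to TTGCNNAA, the core bound by C/EBP factors, and to GAGGAA, a core bound by PU.1, searched on both strands (TTNNGCAA and TTCCTC on the other).
Mmp8: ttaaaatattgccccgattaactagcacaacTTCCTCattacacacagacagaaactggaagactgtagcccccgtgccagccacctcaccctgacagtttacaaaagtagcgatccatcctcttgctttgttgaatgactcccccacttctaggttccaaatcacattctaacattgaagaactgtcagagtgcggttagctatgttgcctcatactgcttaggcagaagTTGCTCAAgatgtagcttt
Retnlg: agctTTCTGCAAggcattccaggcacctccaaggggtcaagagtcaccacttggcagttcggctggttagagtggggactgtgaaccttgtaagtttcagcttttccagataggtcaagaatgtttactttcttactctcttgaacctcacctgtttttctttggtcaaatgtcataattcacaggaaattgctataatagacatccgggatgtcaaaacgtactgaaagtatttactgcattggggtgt
Cd177: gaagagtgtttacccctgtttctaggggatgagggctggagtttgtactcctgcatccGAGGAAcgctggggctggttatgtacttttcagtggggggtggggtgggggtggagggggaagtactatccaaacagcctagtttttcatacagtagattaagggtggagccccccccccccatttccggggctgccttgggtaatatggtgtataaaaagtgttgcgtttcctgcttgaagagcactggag
Adpgk: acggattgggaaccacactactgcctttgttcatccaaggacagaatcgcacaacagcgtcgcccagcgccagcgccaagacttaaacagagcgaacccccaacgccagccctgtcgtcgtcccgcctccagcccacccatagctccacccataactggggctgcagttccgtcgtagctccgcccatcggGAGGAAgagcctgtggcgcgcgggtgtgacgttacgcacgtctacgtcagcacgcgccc
The Mmp8 sequence held 1 C/EBP-like match, 19 to 12 bases before the start, and 1 PU.1-like match. Retnlg held 1 C/EBP-like match at its far end, and Cd177 and Adpgk each held 1 PU.1-like match. Among all 32851 promoter entries of this length, 9.56% held a C/EBP-like and 23.3% a PU.1-like match. Of the 12 genes named below as higher in these cells, 11 had an entry, 4 with a C/EBP-like and 6 with a PU.1-like match. A gene was counted if any of its entries held a match, while the percentages are shares of single entries, so they are unlike measures. These are letter matches, and binding was not measured.

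The number of Mmp8 UMIs formed a continuous range with no gap at the threshold. Among the granule-low, unactivated neutrophils that the rule divides, the selected cells held 3 to 24 Mmp8 UMIs in the implanted library (median 8) and 3 to 29 in the non-implanted library (median 7). The remaining 214 and 326 barcodes, with at most 2 Mmp8 UMIs, are called Mmp8-low neutrophils and had a lower median depth of 2088.5 and 2062.5 UMIs. Just inside the threshold, the 31 and 67 cells with exactly 3 Mmp8 UMIs had Retnlg at 32624 and 24255 counts per 1000000 UMIs of the summed cells (CPM). Just outside it, the 50 and 69 cells with exactly 2 had 23355 and 22449. Il1b, which encodes interleukin-1 beta, stood at 2163 and 2653 CPM inside and 2610 and 3754 outside. At the granule limit, the 15 and 32 cells with 1 to 1.5% Camp, Ngp and Ltf had Lcn2 at 6006 and 7699 CPM, against 8765 and 8672 in the 13 and 12 cells with 1.5 to 2% that otherwise met the rule.

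**Figure D1:**
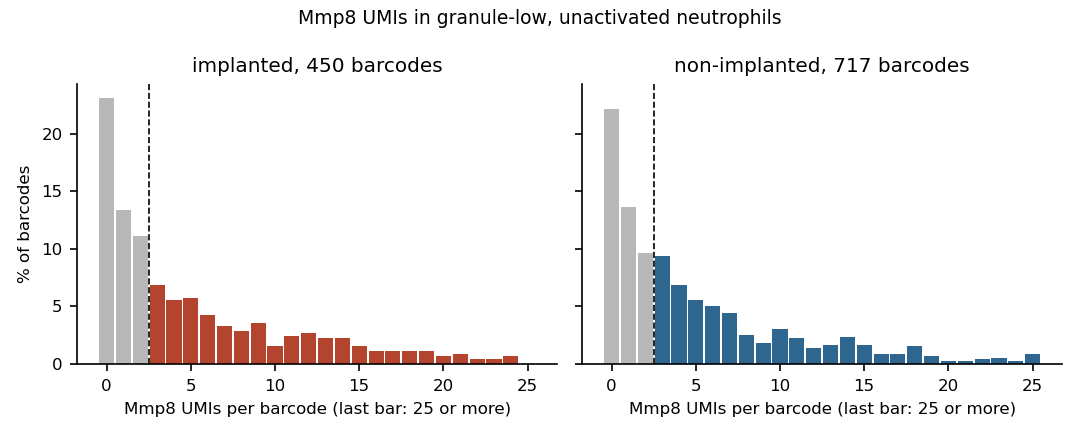
Share of granule-low, unactivated neutrophil barcodes (vertical axis, %) with each number of Mmp8 UMIs (horizontal axis) in the implanted library, left, and the non-implanted library, right; coloured bars are the selected cells, with at least 3 UMIs. The bars decline from 0 UMIs without a gap at the dashed threshold, and the selected cells reach 24 and 29 UMIs.

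Mmp8 transcripts were not confined to the selected cells. At least 3 Mmp8 UMIs were found in 39.9% of implanted and 40.9% of non-implanted granule-high neutrophils (Camp, Ngp and Ltf at 1.5% or more) and in 42.1% and 48.2% of activated neutrophils (5 or more UMIs of the 4 activation genes). The selected cells made up 25.0% and 31.5% of the neutrophils with 3 or more Mmp8 UMIs. As background, 0 of 37 and 1 of 21 barcodes with B-lineage transcripts reached 3 Mmp8 UMIs, at a median depth of 3475 and 3688 UMIs. That 1 barcode held 26 Mmp8 UMIs, and these barcodes had no limit on S100a8 and S100a9. In the non-implanted ones the S100a8 and S100a9 share reached 28.5%, against an upper quartile of 0.190%. Among C1q-expressing barcodes with less than 3% S100a8 and S100a9, 0 of 163 and 2 of 168 did. Among barcodes with Ccr2 or F13a1 transcripts and less than 3% S100a8 and S100a9, the share was higher, 4.73% (15 of 317) and 7.24% (21 of 290), at a median depth of 6926 and 6865 UMIs.

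The other markers proposed for these cells were present in both libraries. Retnlg stood at 40911 and 39907 CPM in implanted and non-implanted selected cells, Mmp9 at 1990 and 2108, and S100a8, a calcium-binding alarmin subunit, at 120887 and 118357. Mmp9 and S100a8 were not particular to these cells. The median share of S100a8 and S100a9 was 25.2% and 25.3% here and 31.8% and 32.4% in granule-high cells. At unequal depth, Mmp9 had a UMI in 96.6% and 99.0% of selected, 91.1% and 89.9% of Mmp8-low and 91.7% and 94.5% of activated cells. Ptprc, the pan-leukocyte gene CD45, had a UMI in 97.9% and 97.7% of the cells. Retnlg had no UMI in 0 and 2 cells, and Csf3r, the granulocyte colony-stimulating factor receptor, had none in 12 and 22. The primary granule genes Elane, Mpo, Prtn3 and Ctsg together reached at most 1 and 3 UMIs in any selected cell.

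Against the other 3 neutrophil classes, specific granule genes were at intermediate levels. Lcn2, which encodes the iron-siderophore binding protein lipocalin-2, stood at 13187 and 14549 CPM in granule-high cells, 3913 and 4202 in Mmp8 positive cells and 1388 and 1421 in Mmp8-low cells. Cd177, which encodes a neutrophil surface protein, stood at 742 and 794, then 320 and 292, then 46.9 and 73.2. Ly6g, the surface antigen used to identify mouse neutrophils, stood at 593 and 656, then 471 and 504, then 108 and 127. In each of these 3 genes both libraries gave the same order, with the Mmp8 positive cells between the other classes. Across all 4855 genes compared, 24 were at least 1.5-fold lower at each of these 2 steps in both libraries, among them Lcn2, Cd177, Adpgk, Ifitm6, Itgb2l, Wfdc21, Anxa1 and Cybb, the membrane subunit of the phagocyte oxidase.

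Csf3r, Il1r2 and Il1b ran the other way. Csf3r stood at 165 and 155 CPM in granule-high cells, 1498 and 1375 in Mmp8 positive cells and 2552 and 2473 in Mmp8-low cells. Il1r2, the interleukin-1 decoy receptor, stood at 295 and 195, then 1784 and 1803, then 3819 and 3295. Il1b stood at 53.0 and 56.0, then 990 and 1192, then 3569 and 3955, and reached 5457 and 4536 in activated cells. The Mmp8 positive cells again lay between, and 158 genes were at least 1.5-fold higher at each step in both libraries. Cxcr2, the chemokine receptor for exit from the marrow, did not follow this order: it stood at 703 and 733 in Mmp8 positive cells and 741 and 724 in Mmp8-low cells, against 60.4 and 67.7 in granule-high cells.

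Intermediate levels were common but not general. Leaving out 12 unusual Mmp8-low barcodes described below, 1657 of 4432 genes were at least 1.5-fold higher in Mmp8-low than in granule-high cells in both libraries, and the Mmp8 positive level lay between them in both libraries for 1230 of these (74.2%). Of the 582 genes that were at least 1.5-fold lower, 247 (42.4%) lay between and 153 were below both classes. In log2 distance the Mmp8 positive cells were nearer to the Mmp8-low than to the granule-high cells in both libraries for 1173 of the 1657 and 441 of the 582 genes. The files hold no measure of time, so these orders are of levels between classes.

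**Figure D2:**
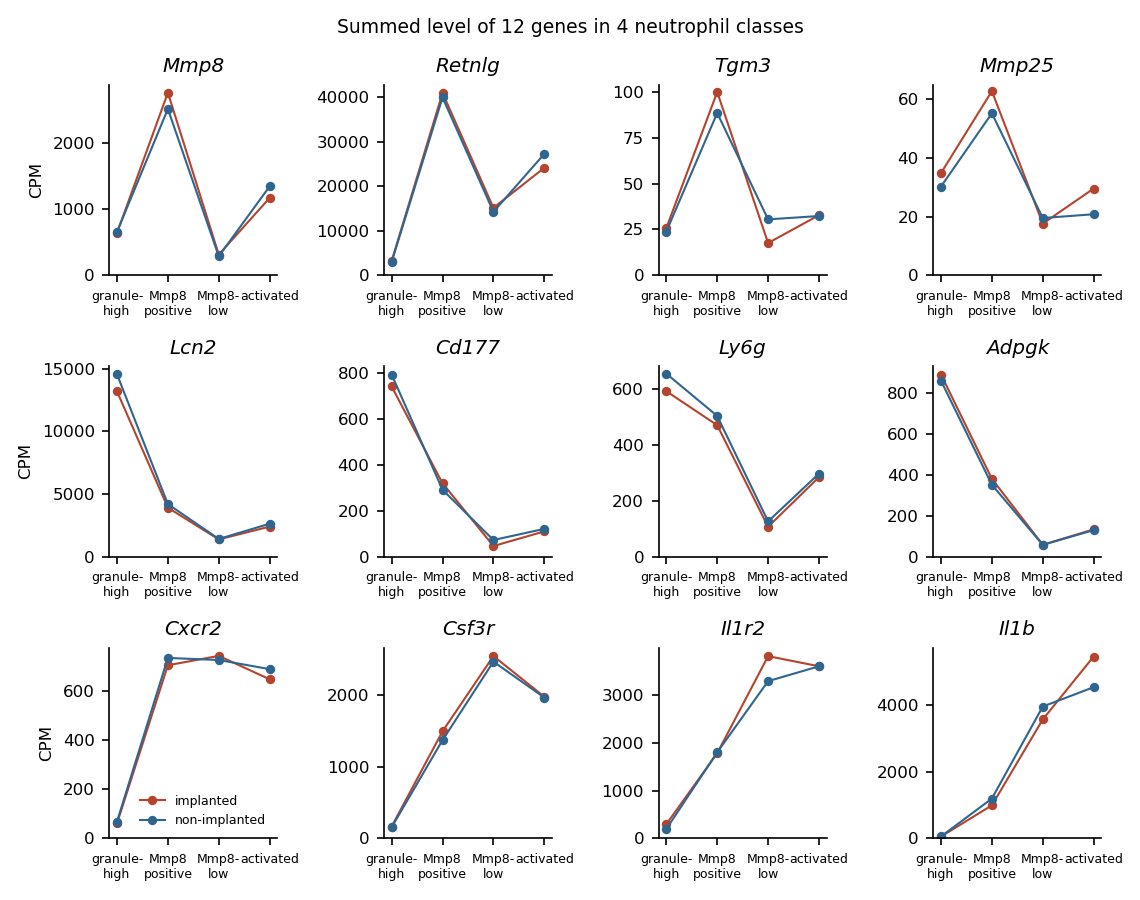
Summed level (CPM, linear axes from 0) of 12 genes in granule-high, Mmp8 positive, Mmp8-low and activated neutrophils, 1 point per library and class. From left to right over the first 3 classes Lcn2, Cd177, Ly6g and Adpgk are lower and Csf3r, Il1r2 and Il1b higher at each step, while Mmp8, Retnlg, Tgm3 and Mmp25 are highest in the Mmp8 positive cells of both libraries.

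A short set of genes was highest in the Mmp8 positive cells. At least 1.5-fold above each of the 3 other neutrophil classes in both libraries were 15 of 4855 genes (0.309%), one of which is Mmp8 itself, fixed by the rule. Tgm3, a transglutaminase that cross-links proteins, had 99.9 and 88.5 CPM against at most 32.8 and 32.3 elsewhere. Mmp25, a membrane-anchored leukocyte metalloproteinase, had 62.7 and 55.2 against at most 34.8 and 30.2. Far1, an enzyme that makes fatty alcohols for ether lipids, had 334 and 311 against at most 184 and 198. Lrrk2, a kinase of vesicle traffic, had 358 and 383 against at most 232 and 248. The others were Sntb1, Rin2, Mov10, Stfa3, Prok2, Gpr27, Rab23 and 3 unnamed or pseudogene loci. Tgm3, Mmp25, Rab23, Gpr27, Prok2 and Stfa3 rest on few transcripts (78 and 117 UMIs for Tgm3, 49 and 73 for Mmp25). Of the 15 genes, 13 stayed at least 1.5-fold above Mmp8-low cells in both libraries without the 12 unusual barcodes, and 10 when the remaining cells were also weighted to the depth of the Mmp8 positive cells. Under that weighting Far1 stood at log2 ratios of 0.57 and 0.55, Sntb1 at 0.86 and 0.43, Mov10 at 0.45 and 0.18 and Rin2 at 0.58 and -0.19. Retnlg missed this set: its activated cells stood at 24129 and 27244, and 40911 and 39907 in Mmp8 positive cells is less than 1.5-fold higher in the non-implanted library.

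Set against Mmp8-low neutrophils of the same library, 131 of 4855 genes were at least 1.5-fold higher in Mmp8 positive cells in both libraries (2.7%) and 980 at least 1.5-fold lower (20.2%). The lower genes depended on 6 Mmp8-low barcodes in each library that either held at least 10 UMIs of Elane, Mpo, Prtn3 and Ctsg or had over 10000 UMIs. These barcodes held 15.3% and 15.4% of all UMIs of the class, and no selected cell met either condition. Elane, Prtn3, Mpo, Ctsg, Ms4a3, Nkg7, Ptma, Fcnb, Rpl10a-ps1, Rpl36al, Rpl3-ps1 and Ppia, were the 12 lowest by the naming rule, and without these barcodes Ptma alone stayed at least 1.5-fold lower in both libraries, at log2 ratios of -1.63 and -1.11. Without these barcodes, 152 of 4432 genes were higher (3.43%) and 490 lower (11.1%), with 103 and 354 genes shared with the first comparison. S100a8, S100a9 and Retnlg take up more of the UMIs of Mmp8 positive cells, and the median log2 ratio of all genes was -0.24 and -0.23. With totals that leave out the rule genes and mitochondrial genes it was -0.06 and -0.05, and 244 genes were then higher and 272 lower, so the excess of lower genes depends on the scaling. Here the cells were chosen for 1 gene of the same profile, and the counts describe the 2 classes without testing them.

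The naming rule gave 12 genes as highest over the whole Mmp8-low class. Without the 12 unusual barcodes it gave Serpinb1a, Syne1, Abca13, Capg and Cdadc1 in place of Lcn2, Retnlg, Tgm3, Mmp25 and Degs1. Serpinb1a was at least 1.5-fold lower in both libraries against the whole class. The values below are those against the whole class. Adpgk, an ADP-dependent glucokinase, had 380 and 352 CPM in Mmp8 positive cells against 58.7 and 58.5 in Mmp8-low cells, a ratio of 6.48 (4.45 to 9.78) in the implanted and 6.01 (4.46 to 8.26) in the non-implanted library. For Cd177 the ratio was 6.82 (4.48 to 10.8) and 3.99 (3.03 to 5.33), and for Ly6g 4.38 (3.29 to 5.93) and 3.98 (3.23 to 4.94). Itgb2l, a beta-2-like integrin of maturing neutrophils, had 69.2 and 82.4 CPM against 17.6 and 14.6. Fosl1, a subunit of the AP-1 transcription factor, had 88.4 and 96.8 against 17.6 and 19.5. Ifitm6, a gene of the interferon-induced transmembrane family, had 782 and 845 against 156 and 218. Lcn2 (2.82 and 2.96-fold), Retnlg (2.70 and 2.80-fold), Tgm3, Mmp25, Degs1, an enzyme of ceramide synthesis, and Tmsb10, an actin-binding thymosin, complete the 12 named genes. All 12 stayed past 1.5-fold in both libraries without the 12 unusual barcodes, also when the remaining Mmp8-low cells were weighted to the depth of the Mmp8 positive cells and when rule genes and mitochondrial genes were left out of the totals. Tmsb10 did not under other definitions of the cells: in the non-implanted library its log2 ratio was 0.31 with Mmp8 at 0.1% of UMIs or more and -0.034 with Mmp8 called after thinning to 1000 UMIs. Of all 152 higher and 490 lower genes, 83 and 153 stayed past 1.5-fold under the depth weighting, in which the least filled of the 10 depth ranges held 0 Mmp8-low cells (implanted) and 1 (non-implanted).

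The lowest genes once those barcodes were left out were named after their values were seen. Il1b had 990 and 1192 CPM in Mmp8 positive against 3569 and 3955 in all Mmp8-low cells, a ratio of 0.277 (0.255 to 0.302) and 0.302 (0.284 to 0.320). Ccl4, a chemokine, had 210 and 183 against 716 and 691, and Ccl3, a related chemokine, had 90.9 and 113 against 301 and 306. Atf3, a transcription factor of the stress response, had 193 and 172 against 542 and 539. Pmaip1, the cell-death gene Noxa, had 21.8 and 29.5 against 106 and 126, and Tnfrsf1b, a tumour necrosis factor receptor, had 66.6 and 96.8 against 243 and 252. Prr5l, Sirpb1c, Tgm2, Wfdc17, Csf1 and Fgl2 were the others among the 12 lowest. When the Mmp8-low cells were also weighted by depth, 10 of the 12 remained at least 1.5-fold lower in both libraries; Pmaip1 was then at a log2 ratio of -0.33 in the implanted and Ccl3 at -0.31 in the non-implanted library.

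**Figure D3:**
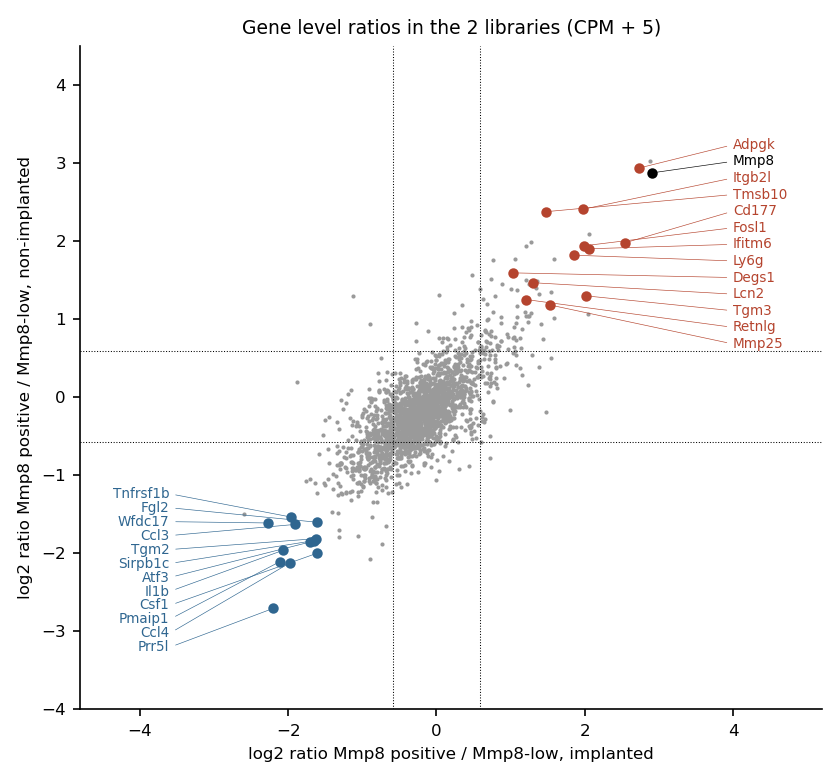
Log2 ratio of CPM plus 5 of Mmp8 positive over Mmp8-low neutrophils in the implanted library (horizontal) and the non-implanted library (vertical) for 2246 genes with at least 200 UMIs, without the 12 unusual Mmp8-low barcodes; dotted lines mark 1.5-fold. The 12 higher genes named against the whole Mmp8-low class and Mmp8, which chose the cells, lie at the upper right. Il1b, Ccl4 and the other lower genes, named without those barcodes, lie at the lower left.

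By gene group, with the backgrounds of 2.7% higher and 20.2% lower above, 11 of 21 compared specific granule genes were higher, 2 were lower, and the median log2 ratio was 0.69 in both libraries. Without the unusual barcodes these were 12 and 0 of 20, against 3.43% and 11.1% of all genes. These backgrounds do not hold for the counts with depth weighted as well. In that setting 83 of all 152 higher and 153 of all 490 lower genes kept their call, and the count of all lower genes is given in the last section. Ngp, Camp and Ltf in this group belong to the rule, and its members Adpgk and Ly6g encode a glucokinase and a surface antigen. Of 11 compared genes on the gelatinase granule list, Mmp8, Mmp9, Mmp25 and Fpr1, a receptor for bacterial formyl peptides, were higher and 2 were lower. Mmp8 chose the cells, so its call was fixed by the rule. Without the unusual barcodes Mmp8, Mmp25 and Fpr1 were higher and 3 genes lower (Ptafr, the receptor for platelet-activating factor, Cd300ld and Tspan13). Mmp9 was then at log2 ratios of 0.43 and 0.39, short of 1.5-fold. With depth weighted as well, Mmp8 and Mmp25 were higher and Ptafr and Cd300ld lower. Fpr1 then fell short in the non-implanted library, at -0.11. Of 35 genes of late maturation, Retnlg, Wfdc21, Stfa3 and Upp1 were higher and, without the unusual barcodes, 12 were lower, including Il1b, Csf3r, Il1r2, Csf2rb and Cd101. With depth weighted as well, 8 were lower, without Csf2rb and Cd101. Of 27 activation genes, 0 were higher and 14 lower without the unusual barcodes. Among these were Cxcl2 and Ccrl2 of the rule and Ptgs2, the inducible cyclooxygenase, and 8 activation genes were lower with depth weighted as well. Of 31 surface receptor genes, 1 was higher (Fpr1) and 8 lower without the unusual barcodes, including Csf3r, Il1r2, Tnfrsf1b and the chemokine receptor Cxcr4. With depth weighted as well, 1 was higher (Clec12a) and 5 lower, among them Csf3r, Il1r2 and Tnfrsf1b but not Cxcr4. Of 32 transcription factor genes, Ets1 was higher and 7 were lower, including Cebpb, but 1 and 1 with depth weighted (Cebpe higher and Rara lower). Of 36 motility and cytoskeleton genes, Tmsb10, Capg and Vim were higher and 0 lower. Of 20 interferon genes, Ifitm6 was higher and 7 were lower, among them Isg15 and Rsad2, and 4 were lower with depth weighted. Of 14 genes of interleukin-1 and the inflammasome, 0 were higher and 5 lower, but 1 (Casp4) and 3 with depth weighted.

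Counts of lower genes in the translation and respiration groups depended on the same barcodes. Of 51 ribosomal protein genes, 46 were lower against the whole Mmp8-low class, but 3 of 40 without the unusual barcodes. Of the nuclear respiratory chain genes, 32 of 61 and then 1 of 57 were lower. Of 27 glycolysis and glycogen genes, 0 were higher and 1 lower against the whole class. Of the 7 phagocyte oxidase genes compared, Cybb was higher, at 414 and 393 CPM against 174 and 191. Weighted by depth without the unusual barcodes, Cybb stood at log2 ratios of 1.03 and 0.28, short of 1.5-fold in the non-implanted library. Cell-cycle genes summed to 709 and 756 CPM in Mmp8 positive cells, against 7007 and 6424 in granule-high cells.

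Transcripts that mark other cell types were sparse. The 13 macrophage markers summed to 321 and 312 CPM in Mmp8 positive cells, 420 and 512 in Mmp8-low and 463 and 434 in activated cells, with Cd163 and Mertk at 0. The 12 monocyte markers summed to 433 and 527, with Vcan and Ly6c1 at 0, and the 9 B-cell markers to 115 and 122, with Cd79a and Igkc at 0. The 6 promyelocyte markers had 20 and 28 UMIs in all, the 12 T- and NK-cell markers 5 and 21 and the 10 erythroid markers 102 and 118. Their part in the differences between classes was not tested.

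The Mmp8 positive cells were themselves graded. From cells with 3 to 5 Mmp8 UMIs (82 implanted and 156 non-implanted), through 6 to 10 (70 and 121), to more than 10 (84 and 114), Lcn2 stood at 2300, 3463 and 5290 CPM in the implanted and 2478, 3978 and 5950 in the non-implanted library. Cd177 stood at 147, 302 and 447, and at 102, 292 and 463. Both genes were higher in each successive range in both libraries, as were Retnlg, Ngp, Camp, Ly6g, Adpgk, Ifitm6 and Itgb2l. Il1b stood at 1906, 737 and 565, and at 2085, 1056 and 503. Csf3r stood at 2186, 1417 and 1103, and at 1963, 1311 and 898, and Il1r2, Cebpb, Ccl6, Srgn and Junb were likewise lower in each range. Median depth also differed, at 2751, 3033.5 and 3810 UMIs and at 2726.5, 3249 and 3934.5, and its part in these orders was not tested.

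Of the 44 genes examined in this way, 18 were higher and 14 lower in each successive range in both libraries. The 18 include Mmp8, whose order the ranges fix, and S100a8, S100a9, Camp and Ngp of the rule. The 44 genes were a chosen list, and the share over all genes was not computed. With the cells divided by their share of Mmp8 UMIs, 16 of the 18, again with Mmp8, and 10 of the 14 kept that order. Ly6g, Timp2, Cxcr2, Slpi, Stfa2l1 and Ccl6 did not. Ly6g then stood at 465, 365 and 586 CPM in the implanted library. Below 0.15%, at 0.15 to 0.3% and above 0.3%, implanted cells had Lcn2 at 2677, 3273 and 5069 CPM and non-implanted cells at 2489, 4144 and 5669. Their median UMIs were 3038, 2987 and 3455, and 2977, 3142 and 3617. Divided instead by Camp, Ngp and Ltf, a limit of the rule, 69.9% and 70.3% of the cells held less than 0.25% of their UMIs from these genes. Ccl6, a chemokine, stood at 3902 and 4090 CPM in those cells and at 1011 and 1049 in the 30 and 46 cells with 0.75% or more, which had Adpgk at 911 and 770 CPM against 214 and 191.

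**Figure D4:**
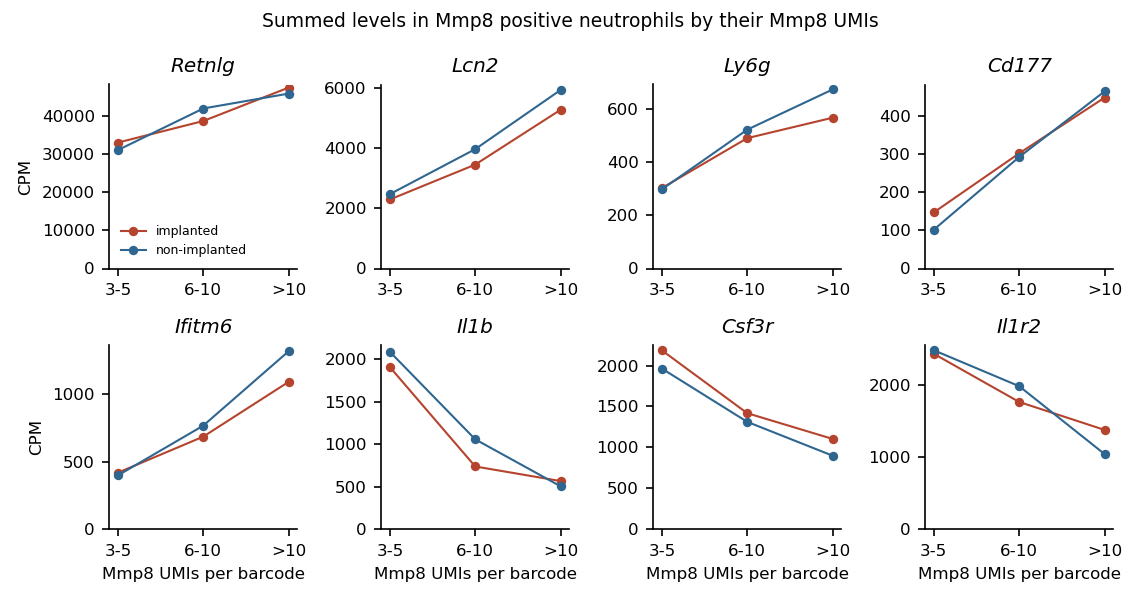
Summed level (CPM, linear axes from 0) of 8 genes in Mmp8 positive neutrophils divided by their number of Mmp8 UMIs, 1 line per library. Retnlg, Lcn2, Ly6g, Cd177 and Ifitm6 are higher and Il1b, Csf3r and Il1r2 lower in each successive range in both libraries; Lcn2 reaches 5290 and 5950 above 10 Mmp8 UMIs.

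Mmp8 positive neutrophils were 7.49% of implanted barcodes that passed the filters (236 of 3149, 6.60 to 8.47) and 11.1% of non-implanted ones (391 of 3513, 10.1 to 12.2). The difference was -3.64 percentage points (-5.02 to -2.24). The neighbouring Mmp8-low cells also took a lower share in the implanted library, 6.80% against 9.28%, a difference of -2.48 (-3.79 to -1.18). The other 2 classes differed by less than their counting intervals: granule-high cells were 34.9% and 34.6% and activated cells 20.2% and 20.8%. Of the 4 neutrophil classes together, the Mmp8 positive cells were 10.8% and 14.7%.

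Within the granule-low, unactivated neutrophils the division at Mmp8 differed between the libraries by less than its counting interval. There, 52.4% of implanted (47.7 to 57.1) and 54.5% of non-implanted cells (50.8 to 58.2) were Mmp8 positive, and the interval of the difference ran from -7.95 to 3.77 percentage points. The lower share of Mmp8 positive cells thus came with a lower share of the whole granule-low, unactivated group, at 14.3% against 20.4%. Implantation, animals, dissection and library cannot be told apart here.

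In the profile of the cells, 206 of 5389 genes were at least 1.5-fold higher in the implanted library (3.82%) and 365 at least 1.5-fold lower (6.77%), with a median log2 ratio of -0.02. This share depended on counts: past 1.5-fold were 20.7% of genes with 20 to 50 UMIs and 0.522% of those with 500 or more. Mmp8 stood at 2761 and 2515 CPM, a ratio of 1.10 (1.04 to 1.16), Retnlg at a ratio of 1.03 (1.01 to 1.04), Mmp9 at 0.944 (0.887 to 1.00) and Lcn2 at 0.931 (0.891 to 0.974). Il1b, at 990 and 1192, gave 0.830 (0.761 to 0.905). These narrow intervals reflect many UMIs within 2 libraries and carry no information on animals.

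The genes furthest apart had few UMIs; to be named, a gene needed at least 40 UMIs and no single cell with 20% of them in the higher library. Mysm1, a histone H2A deubiquitinase, had 31 UMIs in implanted and 22 in non-implanted cells, a ratio of 2.39 (1.34 to 4.33). Slc23a2, a vitamin C transporter, had 43 and 33, a ratio of 2.21 (1.37 to 3.59), and Hbb-bs, a beta-globin gene, had 39 and 31, a ratio of 2.13 (1.30 to 3.53). Dynlt1-ps1, Rbmx, Tmco3, Gmfb, Gpr108, Fam160b1 and Cyp4f13 were the other highest genes. Slc15a2, a peptide transporter, had 15 and 68 UMIs, a ratio of 0.374 (0.198 to 0.660). Gpr65, a proton-sensing receptor, had 14 and 62, a ratio of 0.382 (0.198 to 0.691), and Itga4, the alpha-4 integrin subunit, had 14 and 59, a ratio of 0.402 (0.207 to 0.729). Slc22a19, Clcn3, Tcf4, Evi5, Rps16, Snx5 and Fmnl2 completed the lowest. The Hbb-bs level differed in the same direction in Mmp8-low and activated cells, at log2 ratios of 0.98 and 1.00, while granule-high cells, 1 of which held 3459 haemoglobin UMIs in the non-implanted library, gave -3.21.

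Of the 1401 genes with at least 200 UMIs, 6 were higher and 7 lower (0.928%), and those named here were chosen after their values were seen. Gm12854 stood at 711 and 403 CPM, a ratio of 1.76 (1.56 to 1.99), and Gm6977 at 155 and 79.4, a ratio of 1.95 (1.49 to 2.56). Both were also higher in Mmp8-low, granule-high and activated cells of the implanted library, at log2 ratios of 0.93, 0.88 and 0.90 for Gm12854 and of 1.11 to 1.68 for Gm6977. Tpt1, a translation-associated gene, and Rps10-ps1, a ribosomal pseudogene, were lower in every one of these classes, Tpt1 at -0.66 in Mmp8 positive cells and -0.72, -0.50 and -0.41 in the others. For loci with near-identical copies, reads may be divided between copies, so these 4 values are uncertain. Asprv1, an aspartic protease (263 and 168 CPM), Fmo5, a flavin monooxygenase (192 and 126), Ifnar2, a subunit of the type I interferon receptor (164 and 96.8), and Rps6ka2, a ribosomal S6 kinase (197 and 125), were the other higher genes. Tmsb10, Wfdc17, Gm6913 and Stfa2l1, a cystatin-family inhibitor, were also among the lower genes. Stfa2l1 had 263 and 419 CPM and was detected in 16.1% and 21.2% of the cells, and it may likewise share reads with similar Stfa copies.

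**Figure D5:**
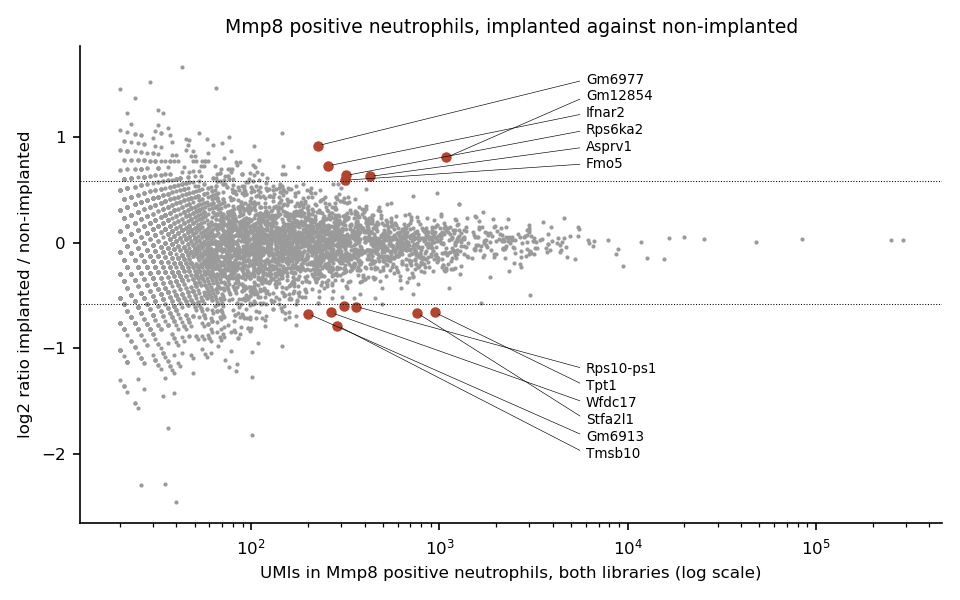
Log2 ratio of CPM plus 5 in Mmp8 positive neutrophils, implanted over non-implanted (vertical), against the UMIs of the gene in both libraries (horizontal, log scale); dotted lines mark 1.5-fold. The spread narrows with the number of UMIs, and the 13 genes past 1.5-fold with at least 200 UMIs are drawn in red, with 12 of them named.

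Few members of the gene groups passed 1.5-fold between the libraries, beside the backgrounds of 3.82% higher and 6.77% lower. None of 20 specific granule genes passed 1.5-fold, nor any of 11 gelatinase granule genes or 7 oxidase genes, with medians of 0.03, 0.13 and 0.02 on the log2 scale. Of 24 glucocorticoid-responsive genes, 0 were higher and 1, Ddit4, an inhibitor of growth signalling, was lower, with a median of -0.01. Of 30 activation genes, 0 were higher and Cd274 and Cdkn1a were lower. Of 22 interferon genes, the transcription factors Irf7 (27 and 23 UMIs) and Irf9 (52 and 50) were higher and the nucleic acid sensor Zbp1 (5 and 19) was lower. Of 12 stefin, Slpi and Wfdc genes, Stfa1 was higher and Stfa2, Stfa2l1 and Wfdc17 lower. Reads may also be divided between the similar Stfa copies, so the opposite directions of Stfa1 and of Stfa2 and Stfa2l1 are uncertain. Of 51 ribosomal protein genes, 3 were higher and 8 lower, with a median of -0.10. One non-implanted cell, the deepest at 9814 UMIs, held at least 20% of the UMIs of 13 genes, among them Pid1, Jarid2 and Cdkn1a. Without it 215 genes were higher and 353 lower. This cell lay near limits of the rule, with 3 to 5% S100a8 and S100a9 and 3 UMIs of Ccr2 and F13a1. It held 7 Mmp8 and 83 Retnlg UMIs, with Lcn2 at 102 CPM and Ly6g at 0. Whether it was a neutrophil was not tested.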

How the data were processed

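The 2 single-cell libraries of the 10x Genomics platform were analysed. Per the submitters' processing notes the reads were processed with Cell Ranger and Seurat against mm10 (GRCm38), and the file headers name Cell Ranger 3.0.1. The deposited values were whole-number UMI counts per gene and barcode made by the authors, as filtered matrices with no cell annotation. The kit counts 3' ends, and the counting options were not given in the sources used here.

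Barcodes were classed by the stated thresholds in Python 3.11.15 (scipy 1.17.1). Counts were summed per class and library and divided by their total to give counts per 1000000 UMIs (CPM). Log2 ratios and 1.5-fold calls were taken on CPM plus 5. Ratios printed with intervals or as folds were plain ratios of CPM. Genes with at least 20 UMIs were compared. Called means at least 1.5-fold, and with 1 library per group no test was run. Genes named for Mmp8 positive against Mmp8-low cells were the 12 highest and 12 lowest with at least 50 UMIs over both classes in each library and called in both libraries, and those for implanted against non-implanted cells the 10 highest and 10 lowest with at least 40 UMIs. Gene groups were literature-based lists, and some are not described. The cells and lists were chosen with earlier results of these data known. The functions were tested on simulated data. Doublets were not removed in the values reported; scanpy 1.11.5 (Scrublet) scores gave an alternative, in which 1 implanted and 3 non-implanted selected cells were removed. Depth per barcode is given with the results.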

Additional observations from a re-analysis of the deposited data

Results flagged for a closer look

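Some log2 ratios of implanted over non-implanted cells had opposite signs past 1.5-fold in Mmp8 positive cells and in another neutrophil class. None of these differences was tested, since each class had 1 sum per library. Mysm1 gave 1.05 in Mmp8 positive and -0.95 in Mmp8-low cells, Cyp4f13 gave 0.88 and -0.82, and Cdkn1a gave -1.52 and 0.79. Hbb-bs gave 0.95 in Mmp8 positive and -3.21 in granule-high cells, 1 of which held 3459 haemoglobin UMIs in the non-implanted library. Against activated cells, Fmnl2 gave -1.06 and 0.82 and Ctss, the gene of cathepsin S, gave -0.68 and 0.85.

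Set against Mmp8-low cells within each library, Mysm1 gave 0.65 with implantation and -1.35 without, and Cyp4f13 gave 0.99 and -0.72. Cdkn1a rests on 2 and 22 UMIs in Mmp8 positive cells, of which 5 came from the deepest cell.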

How the results depend on the processing

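No paired analysis was possible because each group was 1 library. The lower share of Mmp8 positive cells in the implanted library kept its sign under all 11 alternatives, from -4.04 to -2.11 percentage points, the last with at least 5 Mmp8 UMIs required. The difference in the division at Mmp8 ran from -3.31 to 1.91 and lay inside its counting interval throughout. Of the ratios of named genes, 1761 kept within the counting interval, 477 moved outside it, and 28 of those past 1.5-fold changed sign.

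Between the libraries, with at least 50 UMIs 69 genes were higher and 124 lower; with no filter 743 and 961; with a pseudocount of 20 CPM 37 and 77; with 1 CPM 564 were lower. Against Mmp8-low cells weighted by depth 221 genes were higher, with the median set to 0 318 were higher and 494 lower, and with totals without rule and mitochondrial genes 240 and 646. Lower genes were 467 with at least 50 UMIs, 2317 with no filter and 641 with every cell weighted equally.

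Leaving out the unusual Mmp8-low barcodes and the settings combined with it were chosen after seeing the data. Of 4432 genes compared, they gave 490 lower, 264 when also weighted by depth, and 244 higher and 272 lower with the reduced totals. Log2 ratios without the barcodes turned positive for Ctsg (0.60 implanted, 0.38 non-implanted), Elane (0.93 non-implanted), Mpo (0.47 implanted), Rpl10a-ps1 (0.19 non-implanted) and Rpl36al (0.088 implanted). With reduced totals as well these were Ctsg 0.77 and 0.50, Elane 1.16, Mpo 0.63, Rpl10a-ps1 0.36 and Rpl36al 0.23, with Ppia at 0.10 and Prtn3 at 0.041 (non-implanted). With weights as well, Mpo was at 0.098 and 0.073, Rpl36al at 0.030 (implanted), and Prtn3 0.30, Rpl10a-ps1 0.36, Rpl3-ps1 0.27 and Fcnb 0.016 (non-implanted). The cause was not tested. The median of mitochondrial genes turned to 0.051 with reduced totals (implanted) and to 0.078 and 0.28 with weights, and that of respiratory chain genes to 0.15 and 0.015 with reduced totals and 0.16 with weights (non-implanted). Weighted by depth with those barcodes kept, Ccl3 (0.15, non-implanted), Csf1 (0.0084, implanted), Csf3r (0.042, non-implanted) and the activation median (0.12, non-implanted) turned positive; those barcodes held 36.8% and 39.5% of the weighted UMIs, against 15.3% and 15.4% unweighted. Tmsb10 turned to -0.034 (non-implanted) with Mmp8 called after thinning. Depth limits the weakly expressed genes: below 50 UMIs a 1.5-fold difference can lie within counting error.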
